A study of Homo sapiens with 2 samples.

Results

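The 8 genes described here were the direct targets of the liver X receptors (LXR) and the proteins that move cholesterol between compartments: ABCA1, ABCG1, MYLIP, LPCAT3, APOE, NPC1, NPC2 and SOAT1. The rule that picks them uses gene symbols and no measured value, although the set was proposed with earlier results of these data known, and all 8 were found among the 16654 genes of the expression table. The table held 2 poly(A)-selected RNA-seq libraries of HUCCT-1, a human intrahepatic cholangiocarcinoma cell line grown in serum-containing medium. One library came from cells given vehicle and the other from cells given XY101, a small-molecule antagonist of the nuclear receptor RORγ, at 5 µM for 48 hours. The published study also used a second antagonist, GSK805, which was not analysed here. The comparison asked what RORγ inhibition does to the transcripts of these tumour cells.

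Each condition had 1 library, so the differences below describe these 2 libraries, have no replicate check and carry no SD or p-value. A culture of 1 line under 1 condition was measured in bulk, so fewer cells of a type and less RNA per cell cannot be told apart. Levels are FPKM, fragments scaled to transcript length and library depth, as deposited. Ratios are XY101 over vehicle on the log2(FPKM + 0.1) scale, on which differences of scarce genes come out too small. Genes with a mean of at least 1 FPKM, 10894 in all, formed the background. The steps between low values placed the depth near 17000000 fragments for vehicle and 17500000 for XY101, an approximate figure from which fragment numbers and 95% counting intervals were derived. These intervals cover counting error only.

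LXR, a receptor for oxidised forms of cholesterol, pairs with the retinoid X receptor (RXR) and turns on genes that lower the sterol load of a cell. ABCA1 and ABCG1 pump cholesterol and phospholipid out to lipoproteins, MYLIP marks lipoprotein receptors for removal, LPCAT3 remodels membrane phospholipids and APOE carries the exported lipid. On the entry side, NPC2 and NPC1 hand cholesterol out of the lysosome, and SOAT1 converts the surplus to esters for storage in lipid droplets.

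Both cholesterol exporters were lower in the XY101 library, and of the other 6 genes all but APOE, too scarce to judge, differed less. ABCG1 was 4.33 FPKM under vehicle and 1.32 FPKM under XY101, and ABCA1 was 0.53 and 0.15 FPKM. Of the lysosomal proteins NPC1 was 1.36-fold lower and NPC2 1.11-fold lower, whereas LPCAT3 and SOAT1 stood within 1.1-fold of vehicle. APOE was at the edge of detection in both libraries. Of the 8 genes, 6 were lower with XY101, 1 was higher and 1 was listed at the same value.

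**Figure D1:**
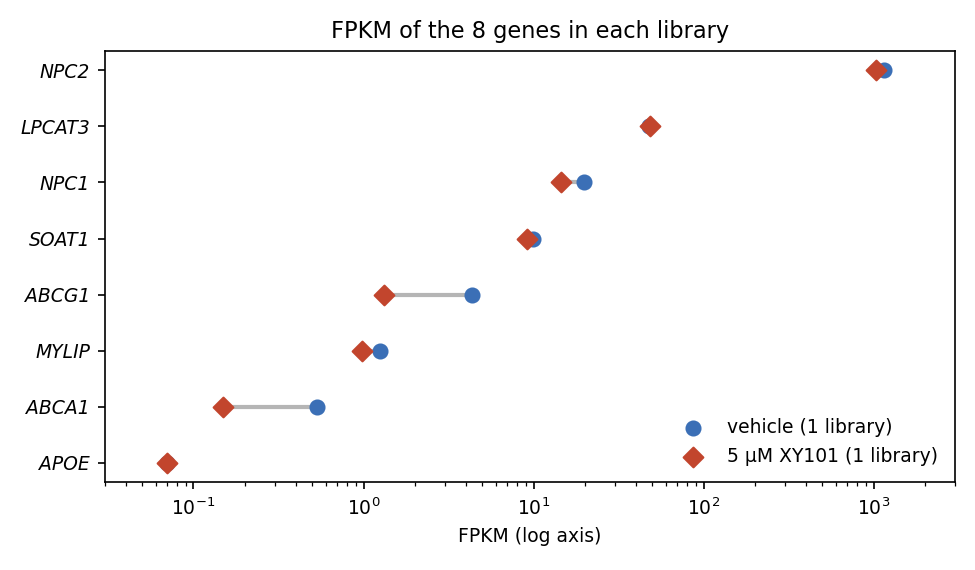
Level of each of the 8 genes in FPKM (log axis) under vehicle and under XY101, 1 point per library. ABCG1 (4.33 and 1.32) and ABCA1 (0.53 and 0.15) have the widest gaps, and the points of APOE coincide at 0.07.

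ABCA1 (NCBI gene 19, chr9:104781006-104928155, GRCh38.p14, minus strand) moves cholesterol and phospholipid onto lipid-poor apolipoprotein A-I, the first step in forming high-density lipoprotein. Its promoter is shown because it was the only one among the windows of these genes that held a direct repeat of the spacing that LXR-RXR binds. The sequence runs 5′ to 3′ on the gene strand over the 250 bases before the RefSeq start, chr9:104928156-104928405, with the repeat in capitals.
ABCA1: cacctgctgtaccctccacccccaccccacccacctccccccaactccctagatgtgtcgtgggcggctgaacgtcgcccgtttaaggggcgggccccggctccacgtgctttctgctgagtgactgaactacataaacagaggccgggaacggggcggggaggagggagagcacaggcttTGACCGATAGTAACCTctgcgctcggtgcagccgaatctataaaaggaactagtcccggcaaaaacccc

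The repeat was searched as NGGTNA occurring in 2 copies in the same direction with 4 bases between them, on both strands. In the ABCA1 window it lay from -69 to -54 relative to the start and read AGGTTACTATCGGTCA on the strand opposite to the one printed. It occurred in 219 of 35116 RefSeq promoter windows of 300 bases, or 0.624%. Windows reached from 250 bases before to 50 bases after the start and were found for 7 of the 8 genes, ABCG1 being the exception. AGGTCA, the nuclear receptor half-site and 1 of the spellings that NGGTNA admits, was in 13.8% of all windows and in none from these genes. TCACNCCAC, a sterol regulatory element, was in 1.13% of all windows and likewise in none from these genes. A match of letters is a description of the window, and nothing was measured of LXR binding.

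ABCA1 was scarce in these cells. Its 0.53 FPKM with vehicle corresponded to about 91 fragments and its 0.15 FPKM with XY101 to about 27. The ratio was 3.53-fold lower without a pseudocount and 2.52-fold lower (log2 -1.33) with it. On the 10408-base main transcript the counting interval of the unadjusted log2 ratio ran from -2.47 to -1.16, so 0 lay outside it. If all reads had come from the shortest of its 4 coding transcripts, 923 bases long, the interval would have run from -4.97 to 0.86. The call of a lower level therefore rested on the long transcript being the one expressed. With a mean of 0.34 FPKM ABCA1 was under the 1 FPKM filter, and it was set against the 2359 genes with means from 0.1 to 1 FPKM, a range chosen after its value was seen. There 125 genes (5.3%) were at least 2-fold lower with XY101, and 72 genes (3.05%) were as low as ABCA1 or lower.

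ABCG1 (NCBI gene 9619, chr21:42199689-42297244) passes cholesterol to particles that already carry lipid, downstream of ABCA1. It was better covered, at about 198 fragments with vehicle and 62 with XY101. ABCG1 was 3.12-fold lower with XY101 (log2 -1.64), and the counting interval ran from -2.15 to -1.30. Over its 7 coding transcripts, which reach from 918 to 3475 bases, the widest interval was -2.63 to -0.83, so no choice of transcript brought it to 0. Only 17 of the 10894 background genes (0.156%), ABCG1 included, were as low or lower. Both exporters differed in the same direction, although their levels in the vehicle library were far apart.

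ABCG1 and ABCA1 also stood at the low end of their transporter family, a comparison made after their values were seen. The table held 40 ABC transporter genes, 22 of them with a mean of at least 1 FPKM. Among these 22 the median log2 ratio was 0.16, beside 0.09 in the background. None of the 22 was at least 1.5-fold higher, against 4.9% of the background. ABCG1 was the only one at least 1.5-fold lower, against 2.32% of the background. The next lowest was ABCB8, a mitochondrial transporter, at 10.91 FPKM under vehicle and 9.96 FPKM under XY101 (log2 -0.13). Of the 7 family members with means from 0.1 to 1 FPKM, 3 were at least 1.5-fold higher and ABCA1 was the only one below 0. The closest to it there was ABCA13, at 0.11 and 0.16 FPKM. Of all genes in that range, 3.05% were as low as ABCA1 or lower. These 2 exporters were thus the lowest ABC transporters in their ranges. With so few genes this describes the libraries and does not show a trait particular to the exporters.

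MYLIP (NCBI gene 29116, chr6:16129086-16163887), also called IDOL, is a ubiquitin ligase that marks lipoprotein receptors for breakdown. MYLIP was 1.25 FPKM under vehicle and 0.98 FPKM under XY101, a log2 ratio of -0.32. About 59 and 48 fragments stood behind these values, and the interval from -0.92 to 0.23 held 0. A difference of MYLIP was therefore not detectable at this depth, and 7.52% of background genes were as low or lower. Among the receptors that MYLIP acts on, VLDLR was 2.24 and 2.95 FPKM (log2 0.38) and LRP8 was 3.71 and 2.56 FPKM (-0.52), opposite in direction.

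LPCAT3 (NCBI gene 10162, chr12:6976185-7018476) adds polyunsaturated fatty acids to lysophosphatidylcholine and so sets how fluid membranes are. It was 47.56 FPKM under vehicle and 48.24 FPKM under XY101, a log2 ratio of 0.02 with an interval from -0.08 to 0.12. Those bounds left room for a difference of no more than about 0.12 in either direction from counting alone. Part of its exons overlapped EMG1, a ribosome biogenesis gene on the other strand, which was 23.56 and 18.59 FPKM. No source used here says whether the counting used strand, so reads in that overlap cannot be told apart.

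APOE (NCBI gene 348, chr19:44905796-44909393), the main lipid carrier secreted by macrophages and hepatocytes, was listed at 0.07 FPKM in both libraries. On a transcript of 1166 bases this was about 1 fragment each, under the floor of 3 fragments, which is 0.199 FPKM under vehicle and 0.194 FPKM under XY101. No fold is given, and the interval from -6.34 to 6.25 reached far on both sides of 0. APOC1, its neighbour in the same gene cluster, was in the list of other LXR targets and was detected at 7.72 and 11.84 FPKM (log2 0.61, interval -0.09 to 1.29).

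NPC1 (NCBI gene 4864, chr18:23506184-23586506) is the lysosomal membrane protein that exports cholesterol that reached the lysosome with lipoproteins. NPC1 was 19.73 FPKM under vehicle and 14.45 FPKM under XY101, a log2 ratio of -0.45. The interval from -0.56 to -0.34 excluded 0 on the main transcript and reached 0.00 on the shortest coding one, of 571 bases. In the background 443 genes (4.07%) were as low or lower. APOE aside, NPC1 thus had the largest difference among the 8 genes after the 2 exporters. Its exons overlapped those of RMC1, on the other strand, which was 5.84 and 6.51 FPKM.

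NPC2 (NCBI gene 10577, chr14:74479935-74493512) is the soluble lysosomal protein that lifts cholesterol from the lumen and passes it to NPC1. It was the most abundant of the 8 genes at 1150.05 FPKM under vehicle and 1032.12 FPKM under XY101. The log2 ratio was -0.16 with a narrow interval from -0.20 to -0.12, since about 10577 and 9772 fragments stood behind it. In the background 17.7% of genes were as low or lower, so a difference of this size was common between the 2 libraries. NPC2 stood 58.3 times above NPC1 in FPKM with vehicle and 71.4 times above it with XY101. ISCA2, an iron-sulphur assembly gene on the other strand whose exons overlap NPC2, was 26.72 and 20.98 FPKM.

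SOAT1 (NCBI gene 6646, chr1:179293797-179358680), the enzyme that esterifies cholesterol in the endoplasmic reticulum of most tissues, was 9.94 FPKM under vehicle and 9.21 FPKM under XY101. Its log2 ratio was -0.11, the interval from -0.23 to 0.01 held 0, and 22.1% of background genes were as low or lower. SOAT2, the form of intestine and liver, named after its values were seen, was listed at 0 in both libraries.

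**Figure D2:**
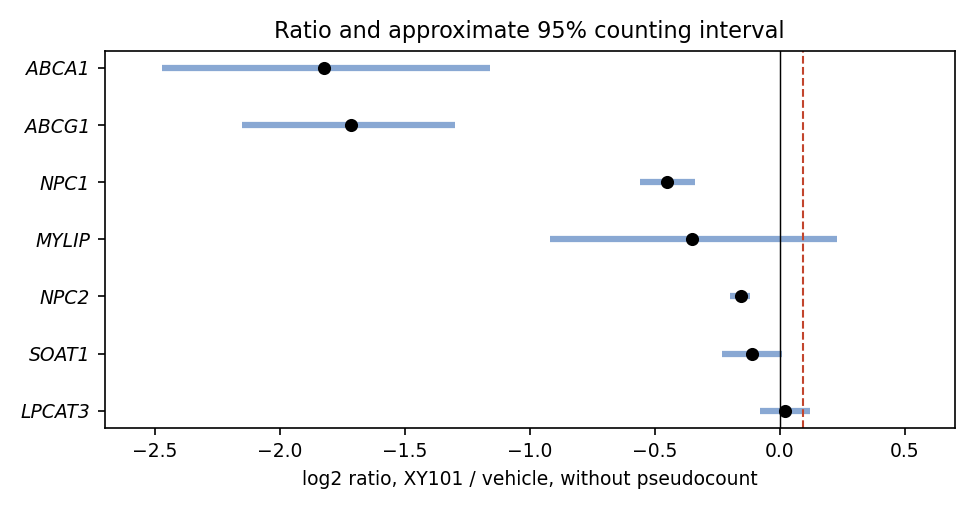
Log2 ratio of XY101 to vehicle without a pseudocount (points) with the approximate 95% counting interval on the main transcript (bars) for the 7 genes other than APOE; the solid line marks 0 and the dashed line 0.09, the median background gene. The bars of ABCA1 (-2.47 to -1.16), ABCG1 (-2.15 to -1.30), NPC1 and NPC2 lie below 0, and those of MYLIP, SOAT1 and LPCAT3 cross it.

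Set against the background, 1 of the 6 genes with a mean of at least 1 FPKM, ABCG1, was at least 1.5-fold lower with XY101, where 2.32% of background genes were (253 genes). It was also at least 2-fold lower, as were 0.698% of background genes. None of the 6 was at least 1.5-fold higher, where 4.9% of background genes were, or at least 2-fold higher, where 1.17% were. The median log2 ratio of the 6 was -0.24 and that of the background was 0.09. Of the 6, 5 had ratios below 0, where 35.3% of background genes did. With 6 genes these counts describe the set and show nothing particular to it.

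**Figure D3:**
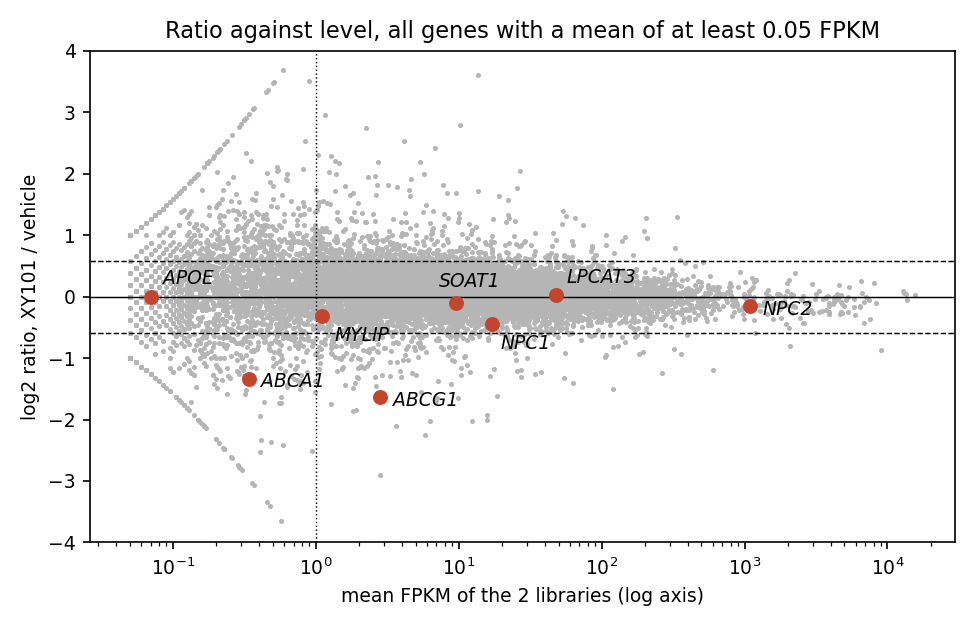
Log2 ratio of XY101 to vehicle against the mean FPKM of the 2 libraries (log axis) for 13841 genes with a mean of at least 0.05 FPKM (grey; 8 genes beyond 4 on the vertical scale are not drawn) and the 8 genes (red). Dashed lines mark 1.5-fold and the dotted line 1 FPKM: ABCG1 (-1.64) and ABCA1 (-1.33) lie below the lower dashed line and the other 6 between the dashed lines.

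The order of the 8 genes by FPKM, a scale that divides by transcript length, was the same in both libraries. It ran from NPC2 through LPCAT3, NPC1, SOAT1, ABCG1 and MYLIP to ABCA1 and APOE. Ratios within a library do not depend on how the libraries were scaled to each other. ABCG1 was 0.436 times the FPKM of SOAT1 with vehicle and 0.143 times with XY101. Relative to LPCAT3 it was 0.091 times and 0.0274 times. ABCA1 was 0.0533 times the FPKM of SOAT1 with vehicle and 0.0163 times with XY101. Exporters were thus lower relative to the esterifying enzyme, by a similar factor for both.

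The receptors that act on these genes were present in both libraries, and RXRA differed most. NR1H2, encoding LXRβ, was 25.59 FPKM under vehicle and 23.63 FPKM under XY101 (log2 -0.11). NR1H3, encoding LXRα, was 7.37 and 7.68 FPKM (0.06). Among the RXR partners RXRB was 25.06 and 27.7 FPKM (0.14). RXRA was 12.2 and 16.98 FPKM (0.47, interval 0.36 to 0.59), the widest difference of the 4. None of them was 1.5-fold higher or lower, and RXRG was not analysed here. Receptor transcripts say nothing of receptor activity, which was not measured.

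Other LXR targets were mixed. Of 18 listed, 12 were in the table and 9 had a mean of at least 1 FPKM, 4 with ratios above 0 and 5 below, where 35.3% of background genes were below. SCD, the fatty acid desaturase, was 91.2 FPKM under vehicle and 34.41 FPKM under XY101 (log2 -1.40). FASN, fatty acid synthase, was 37.93 and 22.09 FPKM (-0.78). These lipogenic enzymes, which the transcription factor SREBP1 also drives, were the only 2 of the 9 at least 1.5-fold lower, against 2.32% of the background. In the other direction APOC1, given above at log2 0.61, was the 1 gene of the 9 at least 1.5-fold higher, against 4.9% of the background. RNF145, a ubiquitin ligase of the endoplasmic reticulum, was 24.72 and 28.61 FPKM (0.21).

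Genes driven by SREBP2, the factor that responds to low sterol and raises synthesis and uptake, were mostly lower with XY101. STARD4 is in this list and in that of the transfer proteins below. All 14 genes in the list had a mean of at least 1 FPKM. Of these, 11 had ratios below 0, where 35.3% of background genes did. At least 1.5-fold lower were 4 of them, against 2.32% of the background. INSIG1, which retains the SREBP factors in their inactive place, was 14.84 FPKM under vehicle and 6.05 FPKM under XY101 (log2 -1.28). FDFT1, squalene synthase, was 139.34 and 90.55 FPKM (-0.62). The exporters ABCA1 and ABCG1 and most SREBP2 targets were thus lower in the same library, and a cause was not tested. The median of the 14 was -0.24, beside 0.09 in the background, and sterol content was not measured.

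Of 5 uptake genes above the filter, 3 had ratios above 0, where 35.3% of background genes were below. Their median was 0.09, equal to that of the background, and none was 1.5-fold higher or lower. SCARB1, the receptor for high-density lipoprotein, was 26.06 FPKM under vehicle and 25.06 FPKM under XY101 (log2 -0.06). LRP1, a large receptor for APOE-bearing particles, was 2.49 and 3.61 FPKM (0.52). Of 6 ester and droplet genes, 5 had ratios below 0, against 35.3% of background genes, with a median of -0.35. PLIN2, which coats lipid droplets, was 4.38 and 2.32 FPKM (-0.89), while PLIN3, a related coat protein, was 105.85 and 107.18 FPKM (0.02). NCEH1, which hydrolyses cholesterol esters, was 43.74 and 32.73 FPKM (-0.42).

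Partners of NPC1 and NPC2 in the lysosome did not share the direction of NPC1. Of 8 lysosomal genes above the filter, 7 had ratios above 0, with a median of 0.17 beside 0.09 in the background, where 35.3% of genes were below 0. LIPA, the acid lipase that frees cholesterol from its esters, was the exception at 30.68 FPKM under vehicle and 24.71 FPKM under XY101 (log2 -0.31). LAMP2, a lysosomal membrane protein, was 21.66 and 28.72 FPKM (0.41). SLC38A9, an amino acid sensor of the same membrane, was 5.66 and 8.27 FPKM (0.54). Lower values were thus found at the NPC1, NPC2 and LIPA steps and not across the lysosomal list.

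Other enzymes that add fatty acids to lysophospholipids, as LPCAT3 does, lay near the background. Of these, 9 of 10 had ratios above 0, where 35.3% of background genes were below. Their median was 0.14, or 0.05 after centring on the median background gene. LPCAT1, the most abundant of them, was 85.63 FPKM under vehicle and 117.72 FPKM under XY101 (log2 0.46). Sterol transfer proteins, 14 above the filter, had a median of 0.09, equal to the background. Of these 14, 1 was at least 1.5-fold lower, against 2.32% of the background. It was STARD4, at 3.92 and 2.15 FPKM (-0.84). Of 8 genes for making or breaking down oxysterols, SULT2B1, which sulphates sterols, was 2.02 and 0.82 FPKM (-1.20). CYP39A1, which hydroxylates an oxysterol, was 0.66 and 1.54 FPKM (1.11). The 4 ABC transporters of lipids other than ABCA1 and ABCG1 that passed the filter were within 1.5-fold, with a median of 0.03. Among 6 apolipoproteins the median was 0.41, beside 0.09 in the background. Of these, 4 had ratios above 0 and 2 below, where 35.3% of background genes were below. At least 1.5-fold higher were 2 of the 6, against 4.9% of the background. They were APOL1 at 71.22 and 142.74 FPKM (1.00) and APOL2 at 22.35 and 45.64 FPKM (1.03). APOO was 18.22 and 17.52 FPKM (-0.06).

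**Figure D4:**
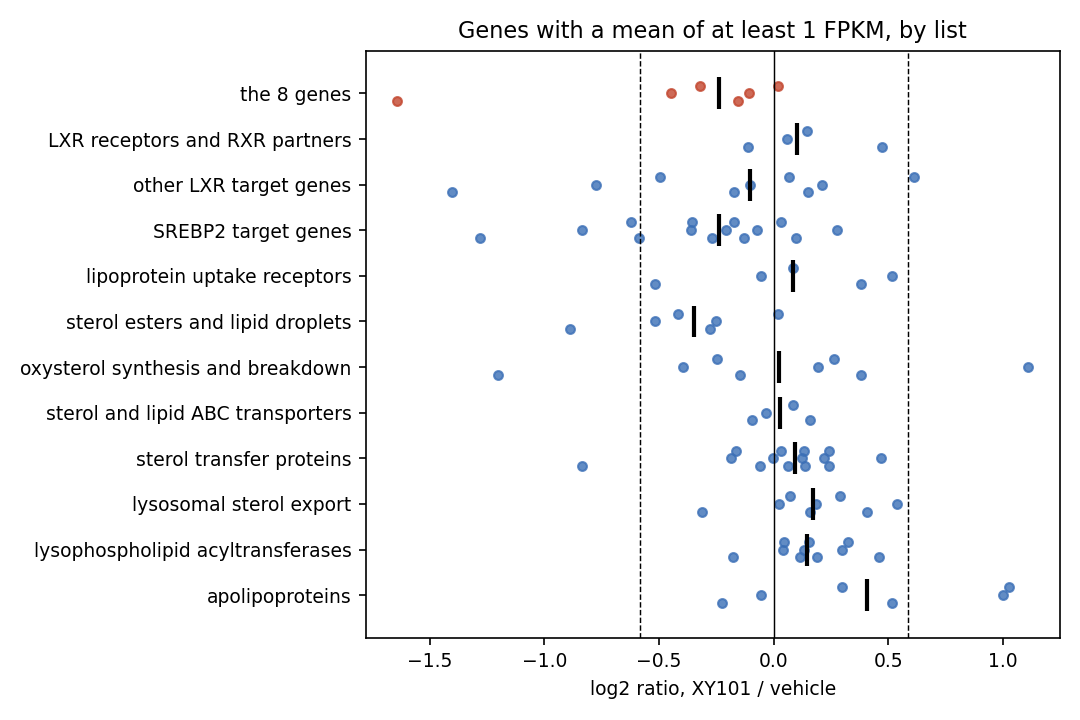
Log2 ratio of XY101 to vehicle for each gene with a mean of at least 1 FPKM, by list, 1 point per gene, with a black bar at the median and dashed lines at 1.5-fold; points are spread vertically for legibility. The median is -0.24 for the 8 genes (6 plotted) and also for SREBP2 targets, and 0.17 for lysosomal genes.

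The labelled cell type was checked against markers. All 7 biliary epithelial markers were detected, KRT7 at 5080.23 FPKM under vehicle and 4184.91 FPKM under XY101, and their summed level was 9968 and 8339 FPKM. SOX9 was 1.96-fold lower. Hepatocyte markers had 2 of 6 genes in the table, with sums of 179.82 and 214.25 FPKM that were nearly all SERPINA1. Macrophage markers had 5 of 8 in the table, with sums of 66.62 and 51.77 FPKM. These sums were mostly CD68 at 63.58 and 47.17 FPKM, and PTPRC was 0.02 and 0 FPKM. CD14, another of them, differed the other way at 2.21 and 3.96 FPKM (log2 0.81, interval 0.29 to 1.46), and the 2 macrophage markers above the filter had a median of 0.19. The markers SERPINA1, CD68, PTPRC and CD14 were singled out after their values were seen. Fibroblast markers summed to 8.36 and 11.51 FPKM, and their part in these results was not tested. The 13 mitochondrially encoded genes had a median log2 ratio of 0.05.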

How the data were processed

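Deposited values were FPKM per gene made by the authors, with no fragment counts. The accounts of how they were made differ. The published methods name alignment to GRCh37 with BWA and Bowtie 2 and estimation with RSEM, and the notes the submitters gave list the tools HISAT2, HTSeq 0.11.2 and limma 3.40.6 and the build GRCh38, without roles. Of 17424 table rows, 770 holding annotation text in place of values were left out, which gave 16654 genes.

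The log2 ratio was computed with a pseudocount of 0.1 FPKM. Lists were summarised over genes with a mean of at least 1 FPKM, and 1.5-fold and 2-fold were used as limits. Relative depth was scanned from the spacing of low FPKM: at the chosen depth 93.0% of 71 vehicle values and 88.5% of 78 XY101 values were within 0.2 of a whole fragment number, where the median over the scan was 38.2% and 37.7%. Counting intervals were exact binomial (95%). Transcript lengths and exon overlaps were taken from GENCODE release 44 on GRCh37. Genome positions and promoters were taken from RefSeq GRCh38.p14 for position and sequence only. The calculations were tested on simulated data and used Python 3.11.15, numpy 2.4.6, pandas 2.3.3, scipy 1.17.1 and matplotlib 3.10.9.

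The 8 genes and the lists were chosen with earlier results of these data known. Named were all 8 genes, the LXR and RXR genes and, per list, up to 3 genes of highest mean and up to 3 of widest ratio, with any others said to be chosen after their values were seen. Alternatives were other pseudocounts, scalings and filters. Some genes of the SREBP2 and uptake lists are not reported here, and the counts and medians of those lists are over the remaining genes.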

Additional observations from a re-analysis of the deposited data

How the results depend on the processing

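The number of the 8 genes at least 1.5-fold lower was 1, ABCG1, with the filter at a mean of 1 FPKM. It was 2 with no filter, which admits ABCA1, and 0 with a mean of at least 5 FPKM, which leaves out ABCG1. The median log2 ratio of the genes above the filter, -0.24, ran from -0.33 after centring on the median gene to -0.13 with a mean of at least 5 FPKM. ABCA1 ran from -1.75 to -0.41 and ABCG1 from -1.74 to -1.20 over the 5 pseudocounts and scalings tried, both nearest to 0 with a pseudocount of 1 FPKM. LPCAT3 ran from -0.07 to 0.06, so its sign depended on the scaling. Of 40 values of single genes, 35 stayed within the counting interval. The 5 outside it were ABCA1 and ABCG1 with a pseudocount of 1 FPKM, and NPC2 with each change of scaling. The interval of APOE was too wide for any of its values to leave. No paired analysis was possible because there was 1 library per condition. Depth limited ABCA1, MYLIP and APOE most.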
